A study of Mus musculus with 6 samples.

Results

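Cxcl12, Cxcl14, Cxcl16 and Ackr3 are 4 of the 22483 genes in the expression table, and they were chosen by name. They encode 3 chemokines usually grouped as homeostatic and a scavenger receptor. All 4 had reads in each of the 6 libraries and are among the 15532 genes that passed the filter on low values. The libraries hold RNA of stromal cells from hind limb muscle of adult Swiss white mice, which the labels place in the tibialis anterior. The study's text names the gastrocnemius and soleus for acute injury, so the muscle is uncertain. Muscle of the injury group was injected with 20 uM cardiotoxin, a venom peptide that destroys muscle fibers, and was taken on day 3. The control group is untreated muscle of the contralateral leg. In both states, cells positive for CD45, CD31 or CD11b were gated out, and the remainder was sorted into a CD140a(-)/Sca1(+), a CD140a(+)/Sca1(-) and a double positive CD140a(+)/Sca1(+) subpopulation, with 1 library for each subpopulation and state. CD140a is the PDGF receptor alpha, the usual surface marker of fibro-adipogenic progenitors, and Sca1 is the product of Ly6a. All 6 samples carry no genetic change, and all were held for several hours at body temperature after digestion so that surface markers could recover. The sources used here do not state how many mice went into a library.

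Chemokines are small secreted proteins that guide cells through G protein-coupled receptors. CXCL12 binds CXCR4, keeps hematopoietic and muscle progenitor cells in their niches and is made mainly by mesenchymal stromal and endothelial cells. ACKR3 also binds CXCL12 but couples to beta-arrestin and removes the ligand from the surroundings, so a cell that carries it can be a sink for the chemokine that its neighbor secretes. CXCL14 is abundant in resting epithelium and stroma, and its signaling receptor is not settled. CXCL16 is made as a transmembrane protein, binds CXCR6 on lymphocytes and becomes soluble when the protease ADAM10 cuts it.

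In the GENCODE M21 annotation of GRCm38, Cxcl12 (ENSMUSG00000061353) lies on chromosome 6 from 117168535 to 117181367 on the plus strand. Cxcl14 (ENSMUSG00000021508) lies on chromosome 13 from 56288643 to 56296551 on the minus strand. Cxcl16 (ENSMUSG00000018920) lies on chromosome 11 from 70453983 to 70459984 on the minus strand. Ackr3 (ENSMUSG00000044337) lies on chromosome 1 from 90203980 to 90216751 on the plus strand. The libraries read the 3′ ends of transcripts, so the values belong to the terminal exons. Cxcl12 has 3 annotated protein-coding transcripts with 3 distinct 3′ ends, and Ackr3 has 2 with 2 distinct ends. The table sums the reads of a gene, so these isoforms cannot be told apart in it.

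The sequences upstream of the transcription start are shown as a description, and a link between them and the levels of the members was not tested. They are the 250 bases before the start in RefSeq (GRCm38), read 5′ to 3′ on the strand of the gene, for the members with an entry. Cxcl16 had no entry. Capitals mark the GC box GGGCGG, the TATA box TATAAA and the hypoxia response core ACGTG or GCGTG, each searched on both strands.
Cxcl12, chr6:117168285-117168534, plus strand: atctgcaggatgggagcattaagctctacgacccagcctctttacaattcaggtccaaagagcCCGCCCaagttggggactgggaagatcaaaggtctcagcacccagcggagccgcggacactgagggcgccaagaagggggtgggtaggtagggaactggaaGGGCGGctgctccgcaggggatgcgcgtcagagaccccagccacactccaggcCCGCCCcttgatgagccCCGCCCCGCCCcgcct
Cxcl14, chr13:56296552-56296801, minus strand: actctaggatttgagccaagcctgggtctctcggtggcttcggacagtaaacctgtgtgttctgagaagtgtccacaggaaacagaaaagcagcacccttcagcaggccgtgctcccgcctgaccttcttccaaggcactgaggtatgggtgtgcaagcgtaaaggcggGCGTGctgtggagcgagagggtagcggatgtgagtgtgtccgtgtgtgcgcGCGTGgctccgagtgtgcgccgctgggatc
Ackr3, chr1:90203730-90203979, plus strand: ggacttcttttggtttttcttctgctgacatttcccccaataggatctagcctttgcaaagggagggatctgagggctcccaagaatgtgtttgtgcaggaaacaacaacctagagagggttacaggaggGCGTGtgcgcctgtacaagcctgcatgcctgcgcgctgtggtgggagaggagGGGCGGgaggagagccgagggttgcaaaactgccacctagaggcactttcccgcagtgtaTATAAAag
The Cxcl12 window holds 5 GC boxes, of which a pair overlaps, and the Ackr3 window holds 1. A GC box occurs in 32.7% of 32851 windows of the same length. The Cxcl14 window holds the hypoxia response core 2 times and the Ackr3 window 1 time, against a share of 38.6% of all windows with at least 1 such core. Ackr3 alone of the 3 has TATAAA, from 8 to 3 bases before the start, a motif found in 12.4% of windows. It also has the C/EBP motif TTGCNNAA, found in 9.56% of windows. None of the 3 windows has the AP-1 motif TGACTCA or TGAGTCA, which 4.46% of windows hold. The GC content is 64.4% for Cxcl12, 59.6% for Cxcl14 and 54% for Ackr3, against a median of 52.4%. These are matches of letters and say nothing of whether a factor binds there.

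The depth, estimated from the spacing of low values, ranges from 2094353 to 14173590 reads per library, and the CD140a(-)/Sca1(+) libraries are the deepest. Values are given as normalized counts, which are reads divided by the size factor of the library. A transcript gives 3′ end reads whatever its length, so these counts carry no length term between genes. In the injured CD140a(+)/Sca1(-) library 69.1% of the genes are listed at 0, against 28.2% to 39% in the other 5. Of 5274 genes with 20 or more normalized counts everywhere else, 928 are at 0 there. That library therefore stands apart, and results are also given without it where it alters them. The sort markers do not all follow the labels. Pdgfra has 211 normalized counts in the control library labelled CD140a(-), against 33.6 and 26.3 in the control libraries labelled CD140a(+). In injured muscle it has 335 in the CD140a(-)/Sca1(+) library, above the 203 of CD140a(+)/Sca1(-) and below the 1240 of CD140a(+)/Sca1(+). Ly6a has 70.4 and 2.09 in the CD140a(+)/Sca1(-) libraries, and between 253 and 5850 in the other 4. Per the study, the control CD140a(+)/Sca1(+) sample also had the lowest sort purity. The subpopulations are therefore named by the label of the sort throughout. Where 3 values stand in a row, the first belongs to CD140a(-)/Sca1(+), the second to CD140a(+)/Sca1(-) and the third to CD140a(+)/Sca1(+) cells.

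Cxcl12, the ligand of CXCR4, peaked in the control CD140a(-)/Sca1(+) library and was lowest in the control CD140a(+)/Sca1(+) library, and the injured levels of both subpopulations lay between these. In CD140a(-)/Sca1(+) cells Cxcl12 had 1024 normalized counts in control and 463 in injured muscle. The CD140a(+)/Sca1(-) cells had 299 in control and 193 in injured muscle. The CD140a(+)/Sca1(+) cells had 90.8 in control and 529 in injured muscle. The level was thus lower after injury in the first 2 subpopulations and higher in the third, and the control and injured values overlap. The 3 folds of injury over control were 0.452 (exact 95% Poisson interval 0.433 to 0.473), 0.646 (0.545 to 0.766) and 5.83 (4.75 to 7.20). Each of these intervals covers the counting error of 2 libraries and not the spread between animals, since no subpopulation has a second library in a state. This combination of directions was found for 20.7% of the genes tested. That share includes genes counted as lower because they had no read in the injured CD140a(+)/Sca1(-) library. It was not limited to genes with reads in all 6 libraries, and neither were the shares of direction given below for single genes. Between the controls the level in CD140a(-)/Sca1(+) was 11.3-fold that in CD140a(+)/Sca1(+), and between the injured libraries the corresponding ratio was 0.875. The 6 levels can all be ordered by counting error, since no 2 neighboring levels have overlapping intervals.

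Cxcl14 had its 2 highest levels in injured libraries, those of CD140a(-)/Sca1(+) and CD140a(+)/Sca1(+). The CD140a(-)/Sca1(+) cells had 746 normalized counts in control and 2173 in injured muscle. In CD140a(+)/Sca1(-) cells the values were 1377 in control and 1440 in injured muscle. In CD140a(+)/Sca1(+) cells they were 184 in control and 1761 in injured muscle. All 3 injured libraries lay above all 3 control libraries, as for 4.18% of the genes tested, and the injured and control CD140a(+)/Sca1(-) libraries had overlapping counting intervals. With quantile normalization the log2 difference in CD140a(+)/Sca1(-) was -0.02 in place of 0.06. The 3 folds of injury over control were 2.91 (2.81 to 3.02), 1.05 (0.978 to 1.12) and 9.55 (8.30 to 11.0). The injured levels lay within 1.51-fold of each other, whereas the highest control level was 7.47-fold the lowest. Cxcl14 was the member with the greatest rank within its libraries after injury, above 98.9% to 99.4% of the genes of an injured library.

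Cxcl16, the membrane-anchored ligand of CXCR6, was highest in the CD140a(-)/Sca1(+) subpopulation in both states. These cells had 1462 normalized counts in control and 666 in injured muscle. The CD140a(+)/Sca1(-) cells had 169 in control and 236 in injured muscle. The CD140a(+)/Sca1(+) cells had 167 in control and 387 in injured muscle. The level was lower after injury in the subpopulation with the most transcript and higher in the other 2, and both controls of the CD140a(+) subpopulations had overlapping counting intervals. The 3 folds of injury over control were 0.456 (0.439 to 0.473), 1.39 (1.17 to 1.67) and 2.32 (1.97 to 2.74). This combination of directions occurs in 7.63% of the genes tested. The CD140a(-)/Sca1(+) level was 8.64-fold and 8.76-fold that of the other controls, and 2.83-fold and 1.72-fold that of the other injured libraries.

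Ackr3, the scavenger receptor of CXCL12, was higher in the injured than in the control library of every subpopulation. It had 296 normalized counts in control and 462 in injured CD140a(-)/Sca1(+) cells. The CD140a(+)/Sca1(-) cells had 67.5 in control and 280 in injured muscle. The CD140a(+)/Sca1(+) cells had 35.3 in control and 58.3 in injured muscle, the control value resting on about 40 reads. Control and injured values overlap across subpopulations, with the injured CD140a(+)/Sca1(+) library below 2 of the 3 controls. The 3 folds of injury over control were 1.56 (1.47 to 1.66), 4.15 (3.30 to 5.24) and 1.65 (1.14 to 2.43). A higher level in the injured library of all 3 pairs was found for 7.92% of the genes tested. The counting intervals of 3 neighboring pairs of levels overlapped, namely control CD140a(-)/Sca1(+) with injured CD140a(+)/Sca1(-), control CD140a(+)/Sca1(-) with injured CD140a(+)/Sca1(+), and the control and injured CD140a(+)/Sca1(+) libraries, although the interval of the fold between the last pair (1.14 to 2.43) lay above equality.

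**Figure D1:**
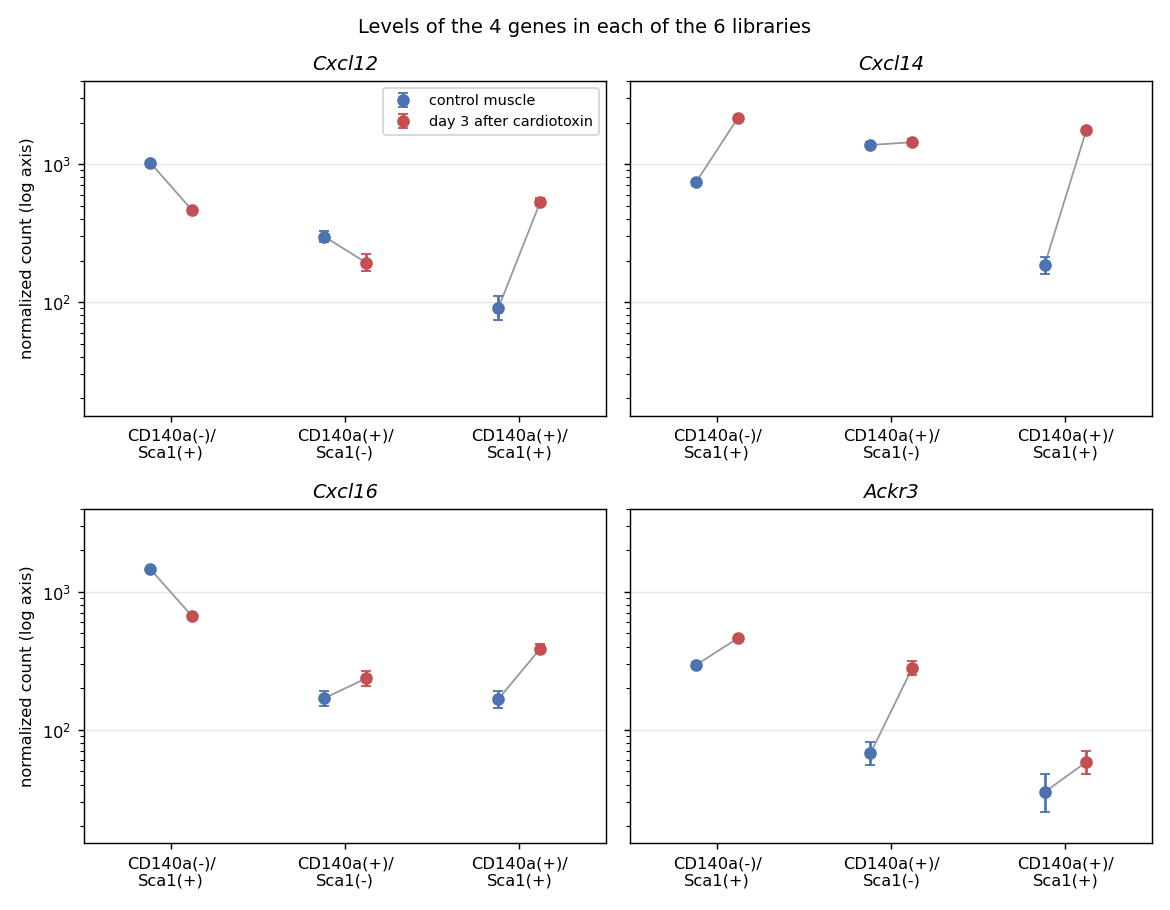
Normalized counts of Cxcl12, Cxcl14, Cxcl16 and Ackr3 (vertical log axis) in the control (blue) and day 3 injured (red) library of each sorted subpopulation (horizontal axis). Points are single libraries joined by subpopulation, and bars are exact 95% Poisson intervals for counting error. The blue point of CD140a(+)/Sca1(+) is the lowest of its panel for all 4 genes, from 35.3 for Ackr3 to 184 for Cxcl14. For Cxcl16 its bar overlaps that of the blue point of CD140a(+)/Sca1(-).

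The 4 genes shared their extremes. Each was lowest in the control CD140a(+)/Sca1(+) library, and each was highest in a CD140a(-)/Sca1(+) library, the control for Cxcl12 and Cxcl16 and the injured for Cxcl14 and Ackr3. For Cxcl16 the lowest level, 167, was not separated by counting error from the 169 of control CD140a(+)/Sca1(-) cells. The lowest level of Ackr3 also had an interval that overlapped the next. Among the 6584 genes tested that had reads in all 6 libraries, 25.9% were lowest in that control, 24.7% were highest in a CD140a(-)/Sca1(+) library and 7.21% showed both. On the CXCL12 axis, the ratio of Cxcl12 to Ackr3 normalized counts was 3.47, 4.43 and 2.573 in the control libraries and 1.002, 0.689 and 9.08 in the injured libraries. The ratio of ligand to scavenger transcripts was thus lower after injury in 2 subpopulations and higher in the third. In bulk libraries of sorted cells, fewer cells of a type and less RNA per cell cannot be told apart.

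The injury comparison across subpopulations used limma on the deposited log2 values with subpopulation as block, and a gene was called when the unadjusted p was under 0.05 and the change at least 3-fold. By this rule 0 of the 4 members were called, against 2.3% of all genes higher (357 genes) and 3.46% lower (537 genes). With quantile normalization, which moved the median gene from -0.33 to 0.00, these counts were 459 and 440. The fitted log2 difference of injury minus control was 1.59 for Cxcl14 (SE 0.70, adjusted p = 0.636), higher than that of 97.1% of the genes. For Ackr3 it was 1.03 (SE 0.53, adjusted p = 0.655), higher than 93.4% of the genes. Left without the injured CD140a(+)/Sca1(-) library, Ackr3 had 0.61, and the median gene was at -0.05 in place of -0.33. The remaining 2 members, which differed in direction between subpopulations, had estimates close to 0 with wide intervals. Cxcl12 had 0.23 (95% interval -1.69 to 2.14, adjusted p = 0.933) and Cxcl16 had 0.16 (-1.32 to 1.65, adjusted p = 0.939). Without the injured CD140a(+)/Sca1(-) library, the change of Cxcl14 was 2.35 and passed the threshold (limma adjusted p = 0.177). Without the CD140a(+)/Sca1(+) pair the estimates were -0.86 for Cxcl12, -0.33 for Cxcl16 and 0.80 for Cxcl14. No gene in the table reached an adjusted p under 0.05 in limma, whereas 1241 had an unadjusted p under 0.05.

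Within single subpopulations, and with a 3-fold difference on the deposited scale in place of a test, 3 of the 12 values passed. Cxcl12 and Cxcl14 passed as higher in CD140a(+)/Sca1(+), where 10.4% of the genes did, and Ackr3 passed as higher in CD140a(+)/Sca1(-), where 8.31% did. No member passed as lower in any subpopulation. Genes passing as higher in CD140a(-)/Sca1(+) were 1.97%. The shares of genes passing as lower in the 3 subpopulations were 4.35%, 29.4% and 6.07%.

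**Figure D2:**
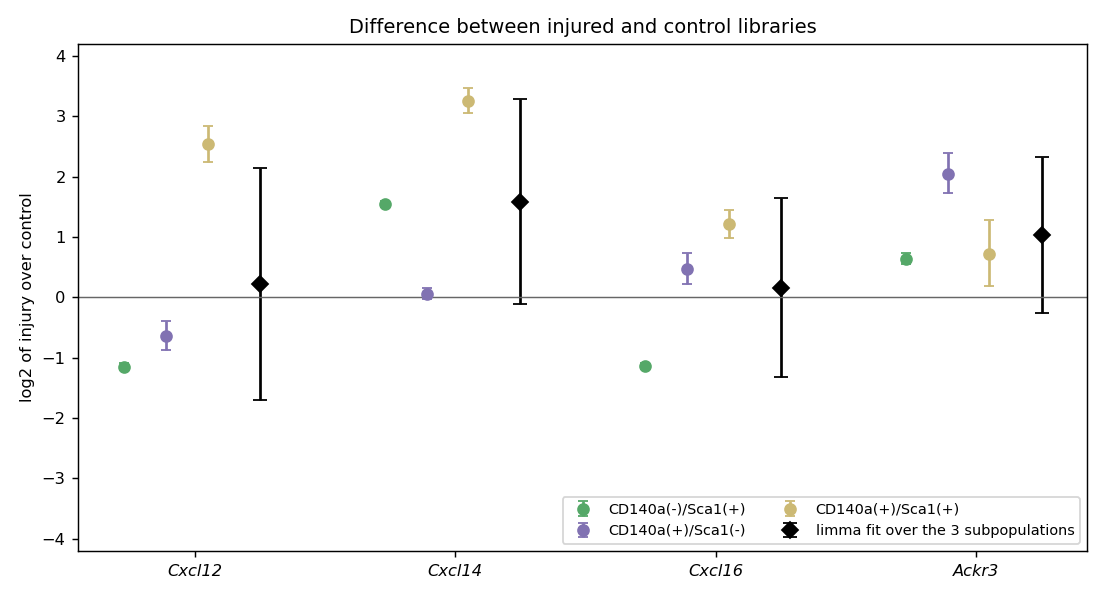
Difference between injured and control libraries (vertical axis, log2) for each gene. Colored points are single subpopulations from normalized counts with 95% counting intervals, and black diamonds are the limma estimates over the 3 subpopulations from the deposited log2 values with 95% intervals. The Cxcl12 points range from -1.14 to 2.54, and the interval of every black diamond includes 0.

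The subpopulations were compared with limma over both states, each against the mean of the other 2. The contrasts of a gene are not independent, since each subpopulation also enters the means that the others are set against. In CD140a(-)/Sca1(+) cells 2 of the 4 members were called higher, where 1.33% of all genes were higher and 0.283% lower. These are Cxcl16, with a log2 difference of 2.07 (SE 0.65, 95% interval 0.50 to 3.65), and Ackr3, with 2.04 (SE 0.56, 0.66 to 3.42). Both had an adjusted p of 0.998 in limma, and their differences were above those of 99.1% and 99.0% of the genes. Cxcl12 had 1.53 (SE 0.83) and Cxcl14 had 0.49 (SE 0.74) in the same contrast. In a fit without a pair, the contrast is the plain difference between the 2 subpopulations left. Without the CD140a(+)/Sca1(+) pair, the difference of Ackr3 from CD140a(+)/Sca1(-) alone was 1.33 and was not called. With log2 of the normalized count plus 0.5, neither gene was called (2.13 for Cxcl16 and 2.22 for Ackr3), and with no filter on low values Cxcl16 was not called. The control CD140a(-)/Sca1(+) library also had the highest sum of leukocyte markers among the controls, 759 normalized counts against 185 and 94.2. Among the injured libraries that sum was highest in CD140a(+)/Sca1(-) cells, at 889, against 383 in CD140a(-)/Sca1(+) and 247 in CD140a(+)/Sca1(+) cells, and the part of such cells in these levels was not tested.

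In CD140a(+)/Sca1(+) cells Ackr3 was called lower, with a log2 difference of -2.08 (SE 0.56, adjusted p = 0.986), where 0.47% of all genes were lower and 1.32% higher. Only 0.219% of the genes had a lower value in this contrast. Without the CD140a(-)/Sca1(+) pair, the difference of Ackr3 from CD140a(+)/Sca1(-) alone was -1.42 and was not called. Cxcl14 had -1.20 (95% interval -3.00 to 0.61), Cxcl12 -0.84 (-2.87 to 1.196) and Cxcl16 -0.79 (-2.36 to 0.79), which were not called. Without the injured CD140a(+)/Sca1(-) library the value of Cxcl14 was -1.77 and passed. Without both CD140a(+)/Sca1(-) libraries, the difference of Cxcl16 from CD140a(-)/Sca1(+) alone was -1.91 and passed.

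In CD140a(+)/Sca1(-) cells no member was called, where 0.657% of the genes were higher and 3.73% lower. Cxcl14 had the highest log2 difference, 0.70 (95% interval -1.10 to 2.51), and Cxcl16 the lowest, -1.29 (-2.86 to 0.29). Cxcl12 had -0.69 (-2.72 to 1.34) and Ackr3 0.04 (-1.33 to 1.42). Left without its own injured library, this subpopulation had a Cxcl14 difference of 1.85, which passed. That fit has only the control library for the subpopulation, and the spread comes from the other 2, so the lone library is assumed to vary like them. Without the CD140a(+)/Sca1(+) pair, the difference of Cxcl16 from CD140a(-)/Sca1(+) alone was -2.24 and passed.

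**Figure D3:**
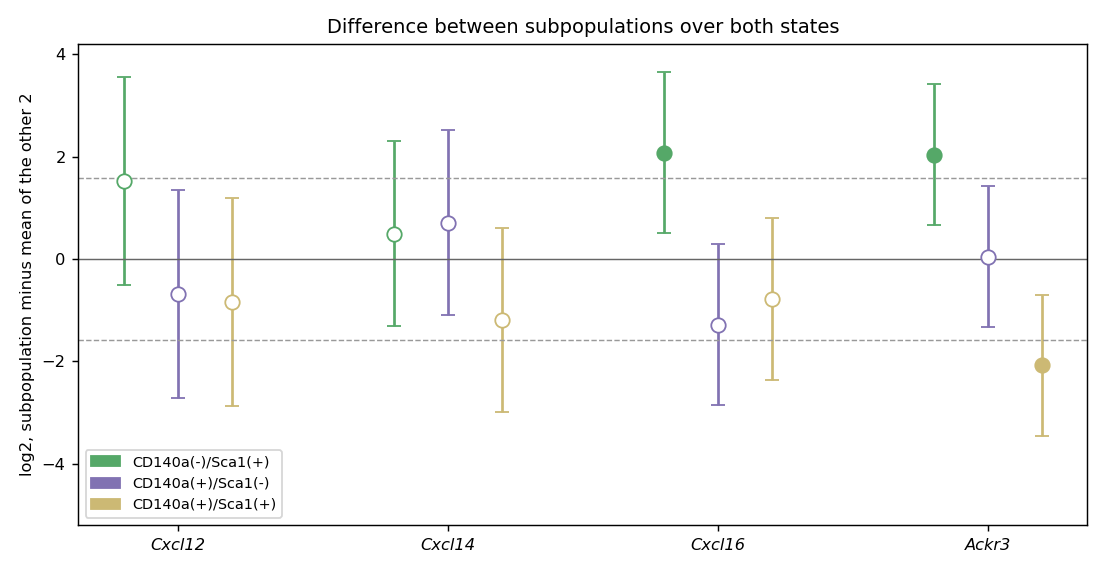
Log2 difference of each subpopulation from the mean of the other 2 over both states (vertical axis) for each gene, with 95% intervals from limma. Filled points are the 3 that passed the threshold, and dashed lines mark a 3-fold difference. Ackr3 has a filled point above and another below 0, at 2.04 and -2.08. The 3 points of a gene sum to 0 by construction, so these are not separate results.

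Transcripts of the CXCL12 receptor were scarce. Cxcr4 had 45.4, 14.1 and 49.4 normalized counts in the control libraries, and 3.36, 0 and 5.83 in the injured ones. All 3 injured libraries lay below all 3 controls, as for 11.2% of the genes tested, and Cxcr4 fell by 2.07 on the log2 scale (SE 0.47, limma adjusted p = 0.420). The receptor of CXCL16, Cxcr6, had 8.43, 0 and 1.77 in the controls and was listed at 0 in the 3 injured libraries, with a fitted log2 difference of -0.80. Of the 4 other atypical receptors, 1 fell, which is Ackr1, the erythrocyte and venule chemokine receptor, where 3.46% of all genes tested fell. Its control values were 93.8, 13.7 and 30.4, its injured values 5.45, 0 and 0.537, and its log2 change -2.40 (SE 0.49, limma adjusted p = 0.383). A gene with no read enters the fit at the lowest deposited value, and Cxcr4 and Ackr1 were also called without the injured CD140a(+)/Sca1(-) library. Ccrl2, which presents chemerin and does not signal, had 213, 12.7 and 8.21 in control and 103, 220 and 13.5 in injured libraries, and did not pass. Ackr2 and Ackr4, scavengers of CC chemokines, stayed at or below 6.56 normalized counts. Of the 5 atypical receptor genes, counting Ackr3, Ackr3 had the most counts in each of the 6 libraries.

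Other chemokines usually called homeostatic were low or absent. Of 8 such genes, 5 passed the filter on low values, and none rose or fell (median log2 change -0.77, against -0.33 for all genes tested). Of all genes tested, 2.3% rose and 3.46% fell. Cx3cl1, the membrane-bound chemokine fractalkine, had 41.6, 3.61 and 53.3 normalized counts in control and 13.1, 0 and 14.4 in injured libraries. Its log2 difference was -1.22 (SE 0.48), less than 3-fold. Ccl21a, a ligand of CCR7, had 27 in the control CD140a(+)/Sca1(-) library and at most 0.937 elsewhere. Ccl19 and Cxcl17 were at 0 in every library. The 3 homeostatic ligands described here thus had more counts than any of these 8 genes in every library.

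Inflammatory CXC chemokines, most of which attract neutrophils or T cells, numbered 10, of which 1 rose and none fell (median 0.05). Of all genes tested, 2.3% rose and 3.46% fell. Cxcl3, a neutrophil attractant, had 1067, 81.6 and 9.71 normalized counts in control and 1027, 565 and 234 in injured libraries, and its log2 change was 2.07 (limma adjusted p = 0.601). Without the CD140a(+)/Sca1(+) pair its difference was 1.29 and it was not called, nor was it with 0.5 added to the normalized counts, with no filter on low values or with no block. Of 14 inflammatory CC chemokines, 13 were tested, 4 rose and none fell (median 0.81). The monocyte attractant Ccl2 rose by 2.32, Ccl6 by 2.82, Ccl7 by 2.84 and Ccl9 by 3.11 on the log2 scale (limma adjusted p = 0.605, 0.508, 0.623 and 0.383). Of these, only the call of Ccl9 was kept under every alternative run. Without the CD140a(+)/Sca1(+) pair the changes of Ccl2, Ccl6 and Ccl7 were 1.33, 1.62 and 1.71, and none was called. Ccl7 was also not called without the injured CD140a(+)/Sca1(-) library (2.16). With 0.5 added, with no filter and with no block, neither Ccl2 nor Ccl7 was called, and with no filter Ccl6 was not called.

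**Figure D4:**
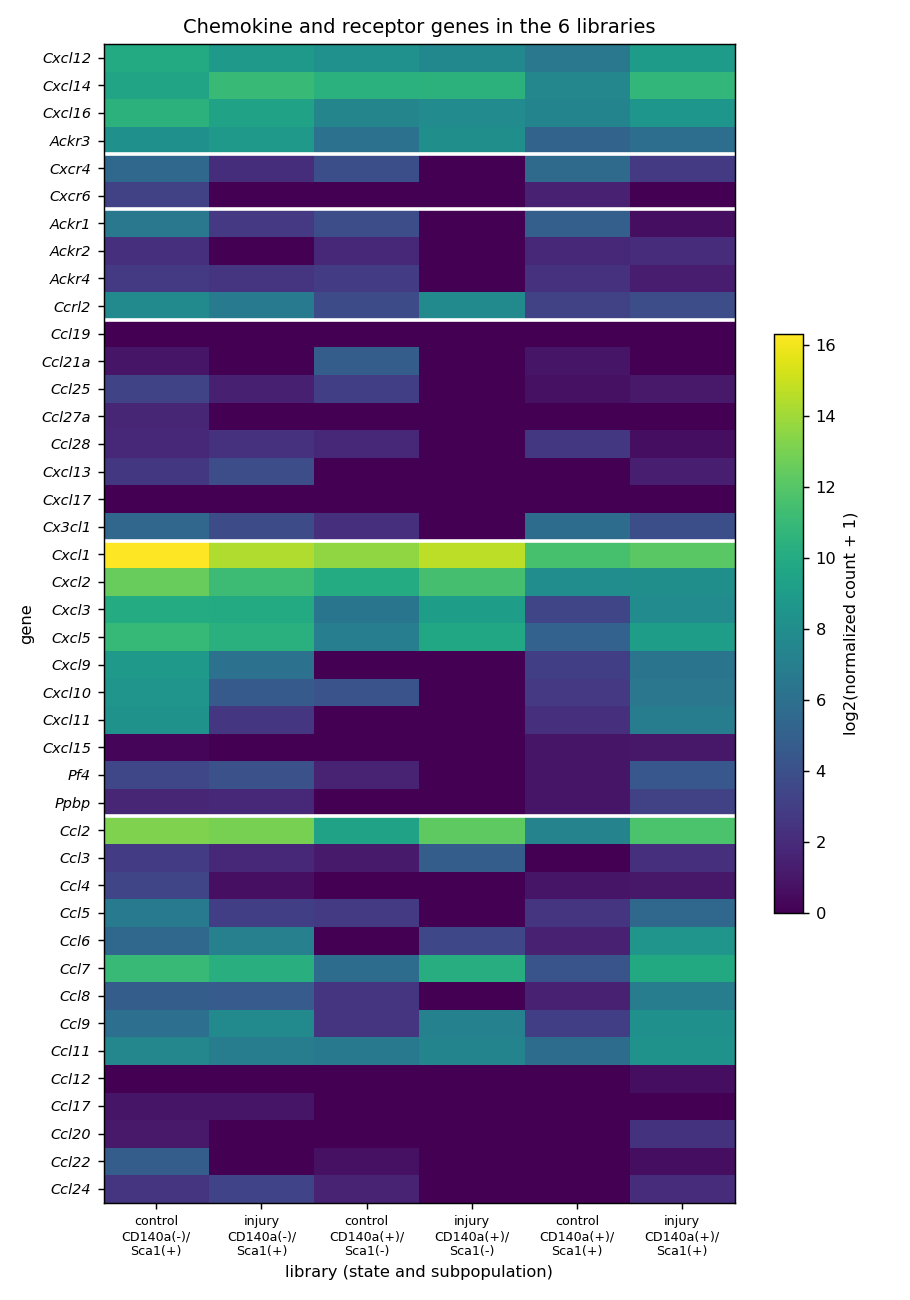
Levels of 42 chemokine and receptor genes (rows) in the 6 libraries (columns), as log2 of the normalized count plus 1. White lines separate, from the top, the 4 members, their receptors Cxcr4 and Cxcr6, the other atypical receptors, other homeostatic chemokines, inflammatory CXC chemokines and inflammatory CC chemokines. The row of Cxcr4 is darker in each injured library than in the controls, and Cxcr6 is at 0 in the injured libraries and in the control CD140a(+)/Sca1(-) library.

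Transcripts of proteins that process or hold the ligands were also measured. Of all genes tested, 2.3% rose and 3.46% fell. Of 5 genes of proteases that cut CXCL12 or release CXCL16, 1 rose, the gelatinase gene Mmp9, by 2.62 on the log2 scale (limma adjusted p = 0.623). It was not called without the CD140a(-)/Sca1(+) pair (3.17) or without the CD140a(+)/Sca1(+) pair (1.0), and on all 6 libraries it was not called with 0.5 added, with no filter or with no block. Adam10, the main sheddase of CXCL16, had 36.2, 32.1 and 40.6 normalized counts in control and 32.7, 118 and 41.9 in injured libraries, and did not pass. Of 11 heparan sulfate proteoglycan genes, whose sugar chains bind CXCL12, 10 were tested and 2 rose. Sdc1, encoding syndecan-1, had 110, 116 and 51.2 in control and 679, 1108 and 864 in injured libraries and rose by 3.15 (SE 0.52, limma adjusted p = 0.289). All injured libraries lay above all controls for Sdc1, as for 4.18% of the genes tested. Sdc2 rose by 2.05 (limma adjusted p = 0.555), and had 1.48 without the CD140a(+)/Sca1(+) pair and 1.84 without the CD140a(-)/Sca1(+) pair, neither of which was called, and it was not called with 0.5 added or with no filter.

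Among 9 genes through which these receptors couple, which are inhibitory G protein subunits, arrestins and receptor kinases, none rose and 1 fell. Of all genes tested, 2.3% rose and 3.46% fell. Grk5, a receptor kinase, had 49.1, 114 and 229 normalized counts in control and 45.6, 0 and 26 in injured libraries. Its log2 change was -2.40 (limma adjusted p = 0.582), and it was not called without the injured CD140a(+)/Sca1(-) library (-1.40) or the CD140a(+)/Sca1(+) pair (-2.24), nor with 0.5 added or with no filter. Of 9 genes that mark CXCL12-rich reticular cells of the marrow niche, 1 rose. Vcam1, an adhesion molecule for leukocytes, had 1660, 113 and 40.9 in control and 2180, 1719 and 339 in injured libraries and rose by 2.31 (limma adjusted p = 0.555). Without the injured CD140a(+)/Sca1(-) library its change was 1.57, under 3-fold, and without the CD140a(+)/Sca1(+) pair it was 2.09 and not called, nor was it called with 0.5 added, with no filter or with no block. Kitl, encoding stem cell factor, had 391, 222 and 876 in control and 213, 194 and 125 in injured libraries and did not pass.

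The sums of some sets of cell type markers differed between the states. Beside the counts of markers given here, 2.3% of all genes tested rose and 3.46% fell. The summed normalized counts of 12 endothelial markers were 874 to 3490 in the control libraries and 51.7 to 350 in the injured ones, and 9 of the 12 fell, although CD31-positive cells had been gated out. Pecam1, which encodes CD31, had 19.8 to 105 in the controls and 0 to 1.51 in the injured libraries. The 5 Schwann cell markers summed to 43.4 to 1740 in control and 2.41 to 15.6 in injured libraries, and all 5 fell. The sum of 12 fibro-adipogenic and fibroblast markers was 4285 to 16057 in control and 52380 to 71478 in injured libraries, and 6 of the 12 rose. Most of each injured sum came from the collagen genes Col1a1, Col1a2 and Col3a1. Col1a2 had 1417, 2620 and 1399 in control and 23272, 26346 and 19199 in injured libraries. Ly6a and Gsn were lower after injury in CD140a(-)/Sca1(+) and CD140a(+)/Sca1(-) cells and higher in CD140a(+)/Sca1(+) cells. For 15 leukocyte markers, of which 14 were tested, the sums were 94.2 to 759 and 247 to 889, with 1 rise and 1 fall. Ptprc, which encodes CD45, had 20.5 in the control CD140a(-)/Sca1(+) library and at most 2.498 elsewhere, with 0 in both CD140a(+)/Sca1(-) libraries. Pericyte and smooth muscle markers summed to 641 to 1249 and 509 to 1222 (1 of 10 rose, 3 fell), and muscle cell markers to 21 to 58.4 and 0 to 17.6 (none of 7 tested passed). The part of these cells in the levels of Cxcl12, Cxcl14, Cxcl16, Ackr3, Cxcr4 and Ackr1 was not tested.

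The genes whose pattern over the 6 libraries was most like that of a member were found by the root mean square difference of log2 values, each gene centred on its own mean. This is a description over 6 libraries, without a test, and the points share library and depth. The deposited scale compresses differences near its lowest value, so genes with few reads can rank as near. Emx2, Hdc, Tpsab1, Kif21b, Il1a and Srp54b are such genes, at 0 in some libraries and at most 38.4 normalized counts. None of them stayed among the 4 nearest under quantile normalization. Nearest to Cxcl12 were Nadk, an NAD kinase (0.180), the homeobox gene Emx2 (0.231), Fam20b, a kinase of proteoglycan synthesis (0.318), and AI413582 (0.355). Nadk had 471, 160 and 32.2 normalized counts in control and 223, 96.7 and 197 in injured libraries, the order of the Cxcl12 levels except that the injured CD140a(-)/Sca1(+) library stands above the injured CD140a(+)/Sca1(+) library. Nearest to Cxcl14 were the calcium sensor Ncs1 (0.218), the collagen prolyl hydroxylase P3h1 (0.232), Sdc2 (0.311) and the metalloproteinase inhibitor Timp2 (0.331). Timp2 had 792, 805 and 94.5 in control and 1854, 1071 and 1128 in injured libraries.

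For Cxcl16 the nearest genes were Hdc, the enzyme that makes histamine (0.205), the mast cell tryptase Tpsab1 (0.211), the hormone gene Stc1 (0.270) and the kinesin gene Kif21b (0.289). Hdc and Tpsab1 each stood at 26.4 normalized counts in control CD140a(-)/Sca1(+) cells, and both were at 0 in the controls of the other 2 subpopulations. Both were also at 0 in injured CD140a(+)/Sca1(-) cells, where Cxcl16 had 236. Stc1 was at 1041, 69.4 and 103 in control and 399, 116 and 296 in injured libraries. For Ackr3 they were the cytokine gene Il1a (0.311), the hyaluronan synthase Has1 (0.361), Srp54b (0.388) and Hif1a (0.401), the oxygen-regulated transcription factor subunit. Hif1a had 1767, 493 and 322 in control and 3744, 2369 and 950 in injured libraries, higher after injury in each subpopulation as Ackr3 was. Among the members the closest pair by this measure was Cxcl12 with Cxcl16 (0.565) and the farthest was Cxcl14 with Cxcl16 (1.39).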

How the data were processed

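RNA of sorted muscle stromal cells was measured with a 3′ end kit (QuantSeq) on an Ion Proton sequencer in 6 libraries. The authors used FastX-Toolkit for trimming, STAR and BRB-seqtools for alignment to GRCm38, and DESeq2 for normalization of the counts. The table deposited by the authors holds variance-stabilized log2 expression of 22483 genes, and 22453 identifiers were matched to a symbol. Genes without a read share the lowest value. That scale was inverted to normalized counts, and the spacing of low values gave the normalized count of 1 read, from which depths and exact 95% Poisson intervals were estimated. These intervals cover counting error only. Of the low values, 58.9% to 70.3% per library lay within 0.02 reads of a whole number, so read numbers are estimates and count models were not run. A level of 2.94 normalized counts stands for 3 reads in the library of least depth.

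Tests used limma 3.58.1 in R 4.3.3 on the deposited log2 values, with state and subpopulation as terms and a common variance prior (4.11 prior and 2 residual degrees of freedom). A gene was tested if the 80th percentile of 2 to the power of its value reached 8, which left 15532. Adjusted p-values follow Benjamini and Hochberg and cover all of these. A call is an unadjusted p under 0.05 and a 3-fold difference. The p-values rest on the spread left after both terms, which is how far the difference between states varies among the subpopulations. They do not measure the spread between animals, since nothing in the labels gives a second culture or animal for a group. Members and gene lists were chosen with earlier results of these data known. Named genes are the members, the 4 genes nearest in pattern to each, Cxcr4 and Cxcr6, and from each list up to 6 called genes, or otherwise up to 2 with the highest mean. Ackr2, Ackr4, Ccrl2, Ccl19, Cxcl17, Adam10 and Kitl were named in addition, after their values were seen. So were the cell type markers Pdgfra, Ly6a, Pecam1, Ptprc, Col1a1, Col1a2, Col3a1 and Gsn. Alternatives concerned the pseudocount, filter, scaling, variance prior, block and omission of each subpopulation. Those added after seeing the data are leaving out the injured CD140a(+)/Sca1(-) library, a filter on normalized counts, and the scalings of the within-subpopulation values. Other software was Python 3.11.15, numpy 2.4.6, pandas 2.3.3 and scipy 1.17.1.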

Additional observations from a re-analysis of the deposited data

Results flagged for a closer look

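Cxcl12 and Cxcl16 were flagged because their direction of difference was not the same in all subpopulations. The combination of directions of Cxcl12 was found for 20.7% of the genes tested, and that of Cxcl16 for 7.63%. For Cxcl12 the log2 of injury over control was -1.14 in CD140a(-)/Sca1(+) and -0.63 in CD140a(+)/Sca1(-) cells, against 2.54 for CD140a(+)/Sca1(+) cells. For Cxcl16 it was -1.13 in CD140a(-)/Sca1(+) cells, whereas the CD140a(+)/Sca1(-) value was 0.48 and that of CD140a(+)/Sca1(+) was 1.21. Each value compares 1 library with 1 library, and the difference between subpopulations was not tested.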

How the results depend on the processing

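The labels give no replicate numbers, and the fit pairs the injured and control library of each subpopulation through the block. Without that block no member of the 4 crossed the threshold for injury. The planned count models were not run, since whole reads were not recovered for nearly all genes. Of 152 alternative values for the members, 39 of the injury comparison and 93 of the subpopulation comparisons kept direction and side of the threshold. These values are not all distinct. For injury, leaving out the injured CD140a(+)/Sca1(-) library gave the same values as leaving out that pair. Each left-out difference between subpopulations was counted for both of them, with opposite sign. The cause of the changes below was not tested, beyond the fact that some alternatives fit fewer samples or more genes. Calls of Cxcr4, Ackr1, Ccl9 and Sdc1 were kept under every alternative run, and Cx3cl1 was called with 0.5 added to the counts. Each of 3 settings, 0.5 added, no filter and no block, ended the calls of Ccl2, Ccl7, Cxcl3, Mmp9 and Vcam1. Of the same settings, 0.5 added and no filter ended those of Grk5 and Sdc2, and no filter that of Ccl6. With 1 library per group, depth limits the counting error but not the spread between animals, which was not measured.

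For injury, leaving out 1 subpopulation at a time gave -0.86 to 0.90 for Cxcl12, 0.80 to 2.35 for Cxcl14 and -0.33 to 0.80 for Cxcl16 on the log2 scale. The range for Ackr3 was 0.61 to 1.26. A variance trend gave 1.59 for Cxcl14, then called. Among subpopulations, each left-out fit compares a subpopulation with the single other one that remained, not with a mean. These fits gave -0.14 to 1.13 for Cxcl14 and 1.33 to 2.75 for Ackr3 in CD140a(-)/Sca1(+). In CD140a(+)/Sca1(-) they gave -1.48 to 0.10 for Cxcl12, -2.24 to -0.33 for Cxcl16 and -1.33 to 1.42 for Ackr3. In CD140a(+)/Sca1(+) they gave -1.91 to 0.33 for Cxcl16 and -2.75 to -1.42 for Ackr3. Without the injured CD140a(+)/Sca1(-) library alone, Cxcl14 had 2.35 for injury and contrasts of -0.0802, 1.85 and -1.77 (order of subpopulations as in the report), and Ackr3 had -0.60 in CD140a(+)/Sca1(-). CD140a(+)/Sca1(-) is then 1 control library, assumed to vary like the others. With 0.5 added to normalized counts the CD140a(-)/Sca1(+) differences were 2.13 for Cxcl16 and 2.22 for Ackr3, and with no filter 2.07 for Cxcl16, none of them called.

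Within subpopulations, scaling to the 75th percentile gave -1.01 for Cxcl12, 1.68 for Cxcl14, -0.997 for Cxcl16 and 0.78 for Ackr3 in CD140a(-)/Sca1(+), and 2.15 for Cxcl12, 2.86 for Cxcl14 and 0.82 for Cxcl16 in CD140a(+)/Sca1(+). Quantile normalization gave 1.65, -0.0164 and 3.05 for Cxcl14 in this order of subpopulations, and 0.92 for Cxcl16 in CD140a(+)/Sca1(+). It kept 1 of the 4 nearest genes of Cxcl12, 1 of Cxcl16 and 2 of Ackr3.

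Counts of called genes moved by more than 1.5 times as follows. For subpopulations, the left-out fits compare with the single other subpopulation that remained, so their counts belong to a different contrast. For injury, 357 higher genes became 181 with no filter and 183 to 456 in the left-out fits, and 537 lower genes became 907 with 0.5 added and 245 with no filter. In CD140a(-)/Sca1(+), 206 higher genes became 311 with 0.5 added, 61 with no filter and 243 to 454 in the left-out fits, and 44 lower genes became 16 with no filter, 96 with quantile normalization, 132 without the injured CD140a(+)/Sca1(-) library and 47 to 190 in the left-out fits. In CD140a(+)/Sca1(-), 102 higher genes became 53, 33, 232, 237 and 47 to 52, and 579 lower genes became 1004, 165, 290, 316 and 209 to 454, under 0.5 added, no filter, quantile normalization, that library left out and the left-out fits. In CD140a(+)/Sca1(+), 205 higher genes became 315 with 0.5 added and 75 with no filter, and 73 lower genes became 48, 32, 114, 123 and 52 to 243 under the same 5 settings. An adjusted p under 0.05 for injury was reached by 0 genes as reported (limma, 1241 with an unadjusted p under 0.05), 10 with quantile normalization, 15 with a filter on normalized counts, 73 without the injured CD140a(+)/Sca1(-) library and 95 with a variance trend.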
